A study of Drosophila melanogaster with 3 samples.

Results

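Of the 5806 reproducible NfI-GFP binding summits mapped in whole Drosophila melanogaster embryos, 223 lay deep inside introns. A summit is the base of highest signal in a peak. A member was a summit inside an annotated gene body, in no exon of any transcript, and more than 10000 bp from the nearest transcription start site of any gene. Annotated transposable elements were not counted as genes, and counting them leaves 165 members. These 223 summits were 3.84% of the list (95% exact binomial interval 3.36 to 4.37%) and fell in 143 genes. The choice used the genome annotation alone and no measured value other than the position of the summit.

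The peaks came from chromatin immunoprecipitation sequencing (ChIP-seq), in which DNA fragments bound by a protein are precipitated and sequenced. All 3 libraries belonged to 1 group, biological replicates 2, 3 and 4, with no second condition. Embryos of both sexes were collected at 12 to 24 h from a transgenic line stably carrying NfI with green fluorescent protein (GFP) at its C terminus. Every library came from that same line, so an untagged or second line is not part of the comparison, and all cell types of the embryo were pooled. The labels describe each sample as an input control, yet name an NfI antibody and a transcription factor assay, and the libraries were read here as immunoprecipitates.

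NfI belongs to the nuclear factor I proteins, of which the fly has a single one. They bind DNA as dimers at a palindrome of the arms TTGGC and GCCAA. In vertebrates these factors act in the development of the brain, lung and other organs. Long introns in flies hold many enhancers, the stretches of DNA that switch a gene on in a given cell type, often far from the promoter.

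The sequence that recurred beside deep intronic summits was not the nuclear factor I site. It was a short element containing CAGTG, found in the bases around these same summits. At 41 to 120 bp from the summit, a copy read away from it in 76 of 223 members (34.1%). A copy read toward it in 55 (24.7%). Outward copies led at 61 to 80 bp (43 against 11), and inward copies at 41 to 60 bp (24 against 16). Outward copies were also at 31.5% of mid intronic and 34.7% of intergenic summits, so they are not particular to deep introns. Shares were lower at near intronic (24.2%) and promoter (19.7%) summits, classes defined below. In 16 members a longer form stood as a pair on both sides of the summit. Stretches from 5 members with such an element on both sides are shown, on the forward strand of assembly dm6, because the results on sequence turn on them. Capitals mark the 12-base element, TTT, 4 bases of any kind and CAGTG, on the right and its reverse complement on the left. The members are named by host gene.
CG43759, chrX:19018183-19018367: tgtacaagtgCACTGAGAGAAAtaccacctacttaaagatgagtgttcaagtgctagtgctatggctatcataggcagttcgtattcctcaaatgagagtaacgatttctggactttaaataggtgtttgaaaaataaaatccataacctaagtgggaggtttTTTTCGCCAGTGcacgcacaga
Snoo, chr2L:7916428-7916603: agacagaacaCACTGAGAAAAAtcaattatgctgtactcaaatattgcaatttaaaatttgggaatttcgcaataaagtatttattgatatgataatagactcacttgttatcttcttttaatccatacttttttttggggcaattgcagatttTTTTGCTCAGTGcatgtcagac
CG34347, chr3R:31325157-31325341: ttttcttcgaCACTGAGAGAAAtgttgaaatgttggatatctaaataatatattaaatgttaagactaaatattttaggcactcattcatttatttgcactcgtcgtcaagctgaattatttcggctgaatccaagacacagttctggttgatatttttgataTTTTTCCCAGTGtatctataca
gukh, chr3R:18995784-18995982: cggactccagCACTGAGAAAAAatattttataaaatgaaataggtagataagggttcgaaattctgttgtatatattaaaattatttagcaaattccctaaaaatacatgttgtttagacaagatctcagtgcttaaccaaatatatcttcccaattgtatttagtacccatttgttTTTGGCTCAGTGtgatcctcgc
Vsx1, chrX:5604274-5604450: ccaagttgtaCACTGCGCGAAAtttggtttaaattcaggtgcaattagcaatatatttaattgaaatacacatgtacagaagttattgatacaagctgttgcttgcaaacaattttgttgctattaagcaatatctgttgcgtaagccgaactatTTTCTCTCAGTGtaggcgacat

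Windows reaching 100 bp to either side of the summit are shown for 2 of the strongest members, whose summits lack such a pair. Capitals mark CAGTG on either strand, where present. The copy in the gpp window lies right of the summit on the reverse strand, so it reads toward the summit.
lncRNA:CR44357, chrX:7242015-7242215: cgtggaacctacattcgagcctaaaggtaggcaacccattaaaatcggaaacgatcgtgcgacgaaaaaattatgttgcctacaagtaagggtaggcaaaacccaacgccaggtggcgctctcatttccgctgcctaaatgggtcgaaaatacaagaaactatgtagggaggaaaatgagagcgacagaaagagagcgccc
gpp, chr3R:6424023-6424223: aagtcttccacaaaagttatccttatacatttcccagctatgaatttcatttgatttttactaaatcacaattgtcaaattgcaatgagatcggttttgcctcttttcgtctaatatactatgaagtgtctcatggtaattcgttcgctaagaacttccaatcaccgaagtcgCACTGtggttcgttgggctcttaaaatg

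The window of Drak held TTGGCA, a nuclear factor I arm with 1 more base, on the reverse strand, with the arm in capitals.
Drak, chrX:11518532-11518732: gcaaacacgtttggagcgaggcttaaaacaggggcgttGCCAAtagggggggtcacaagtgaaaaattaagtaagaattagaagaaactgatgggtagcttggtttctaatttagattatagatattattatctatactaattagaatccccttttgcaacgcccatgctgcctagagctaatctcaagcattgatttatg

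Deep introns held fewer summits per base than any other intronic distance class. Introns over 10000 bp from a start site made up 12.9% of the bases of the 6 chromosome arms and had 12.96 summits per Mb. The nearest comparator was the class of mid intronic bases, over 2000 and up to 10000 bp from a start site, with 33.9 summits per Mb (820 summits). The ratio of the densities was 0.382 (95% interval 0.328 to 0.444, exact binomial test, 2-sided, p = 3.336e-43). Peaks are not replicates of the embryo collection, and 71 members lay within 5000 bp of another member, so this p does not measure the spread between collections. On the 5806 strongest peaks of each library, replicates 2, 3 and 4 gave ratios of 0.303, 0.432 and 0.428. Their mean was 0.388 ± 0.0737 (SD, n = 3). The deep class was below the mid class in all 3.

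Within the deep class, density was listed by distance without a test. There were 21.9 summits per Mb at 10001 to 15000 bp (121 members), 13.8 at 15001 to 20000 bp (42 members) and 15.2 at 20001 to 30000 bp (42 members). Beyond 30000 bp it was 3.06 per Mb, from 18 members. Replicate means in the 4 distance ranges were 23.9 ± 8.17, 16.8 ± 5.43, 15.5 ± 5.06 and 3.23 ± 1.04 per Mb (SD, n = 3). The first 3 ranges overlapped within these errors. Within each replicate the range at 15001 to 20000 bp was above that at 20001 to 30000 bp, the reverse of the reproducible list. The farthest range was below the other 3 in each replicate. Without the members beyond 30000 bp the ratio to mid introns was 0.534 (0.456 to 0.622, exact binomial p = 1.937e-17).

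**Figure D1:**
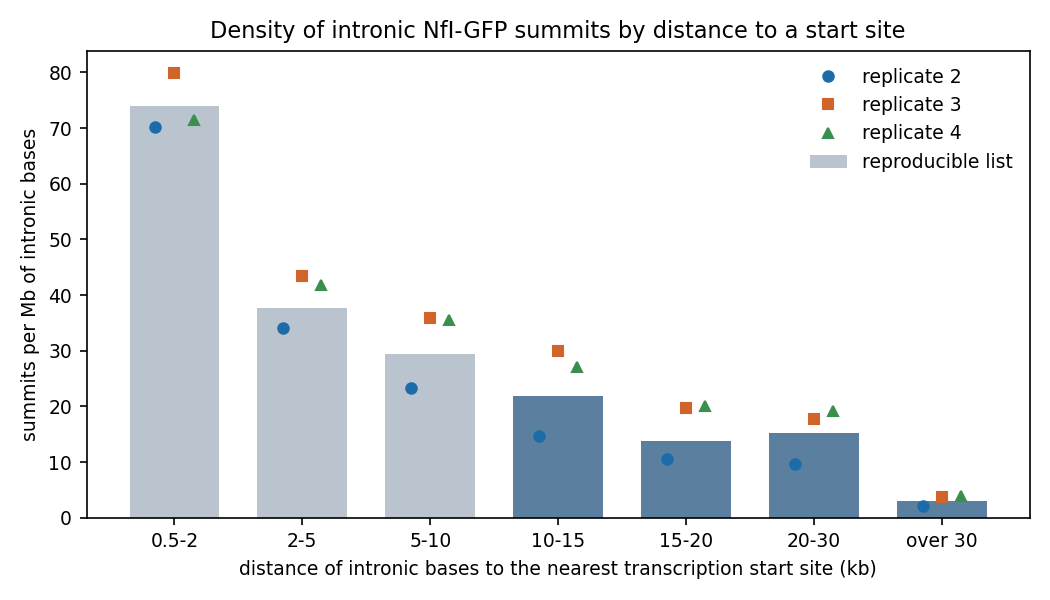
Summits per Mb of intronic bases (y axis) against distance to the nearest start site in kb (x axis); bars are the reproducible list, dark for the deep class, and points are the strongest 5806 peaks of each replicate. The bar at 501 to 2000 bp stands at 74.0 per Mb and that beyond 30000 bp at 3.06, and replicate 2 is the lowest point in each distance range.

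Repeated sequence was more common in deep introns, where 28.2% of bases were masked as repeats in the reference against 21.3% in mid introns, and 10.3% lay in annotated transposable elements against 6.93%. No member had its summit in an annotated transposable element. On unmasked bases alone the density ratio was 0.417 (0.351 to 0.493, exact binomial p = 1.805e-28). How well reads could be placed in either class was not tested. Density in the deep class was 20.2 per Mb on chromosome X (63 members) and 19.4 on 2L (40 members), against 9.06 on 2R, 10.4 on 3L and 10.4 on 3R. The mid class ranged from 30.1 to 41.3 per Mb over the same 5 arms, so the arms differed less there. Chromosome 4, where the NfI gene itself lies, held 0 members in 0.108 Mb of deep bases and also 0 mid intronic summits in 0.338 Mb.

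The distance from member to start site ran from 10007 to 53968 bp, with a median of 14443 bp. At the limit itself stood the summits in ush, a GATA cofactor (10007 bp), MESR3 (10015 bp) and nmo, the Nemo kinase (10048 bp). Just short of it were Efa6 (9980 bp), NetA (9956 bp) and Hs6st (9892 bp). Relative signals in replicates 2, 3 and 4 were 0.853, 1.97 and 2.00 at ush, and 0.831, 1.63 and 1.53 at Efa6, and both were lowest in replicate 2. The nearest start site belonged to the host gene for 120 members and to another gene for 103. Introns that held a member had a median length of 25252 bp, and the nearest exon lay a median of 7213 bp away. A first intron held 45.3% of members, while 527 of the 820 mid intronic summits (64.3%) were in one.

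Few summits over 10000 bp from a start site were among the strongest. The top 20% of the reproducible list, ranked by the authors' signal, held 11 of the 223 (4.93%, 2.49 to 8.65%), where the share over all peaks is 20 percent by construction. In mid introns 13.2% were in the top 20%, in near introns, over 500 and up to 2000 bp from a start site, 19.4%, in intergenic DNA 14.7% and at promoters, within 500 bp of a start site, 24.4%. The deep share was below each of the 4 (Fisher's exact test, 2-sided, Benjamini-Hochberg adjusted over the 4 comparisons, p = 3.24e-04, 2.69e-08, 6.6e-05 and 1.3e-13). The 5 quintiles held 11, 45, 58, 62 and 47 members from strongest to weakest. With the limit moved to 20000 bp, mid introns also reached up to 20000 bp. Then 8.33% of deep and 11.6% of mid summits were in the top 20%. This difference (deep minus mid) was −3.26 percentage points, not past the threshold (adjusted p = 0.535, Fisher's exact test). Other limits of strength also gave smaller differences (deep minus mid): the top 10% held 3.14% of members, a difference of −2.11 percentage points (adjusted p = 0.220, Fisher's exact test), and the top 50% held 38.1%, a difference of −5.18 points (adjusted p = 0.210).

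Strength was compared between libraries as relative signal. For each replicate this took the highest signal among its peaks over the member and set it against the median of its 5806 strongest peaks. Set against the median of the full replicate list instead, values are 3.71, 3.23 and 3.10 times as high in replicates 2, 3 and 4, so replicate 2 stands higher against the others. Replicate 2 was the lowest for 17 of the 20 strongest members on the first scale and for 16 on the second. The strongest member was in sbb (scribbler, also called brakeless), a nuclear corepressor, at chr2R:18336935-18337360. Relative signals of 4.81, 5.71 and 4.16 were read there in replicates 2, 3 and 4. The mean was 4.89 ± 0.778 (SD, n = 3), and it ranked 169 in the whole list. Against the full-list median its mean was 16.4 ± 3.04 (SD, n = 3). All 3 values were more than 4 times the median strong peak.

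The next member lay in the long noncoding RNA gene lncRNA:CR44357 on chrX:7241968-7242249, at 2.53, 4.22 and 6.99. These values were 2.76-fold apart, and replicate 4 was the highest. In gpp (grappa), the histone H3 lysine methyltransferase of the Dot1 type, relative signals were 2.43, 3.72 and 4.55. A summit in Snoo, a Ski/Sno family coregulator of BMP signalling, stood at 2.17, 3.57 and 3.40. For both genes replicate 2 gave the lowest value.

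At mamo, which encodes a BTB zinc finger protein needed in the germ line, the values were 2.53, 3.02 and 3.39. The summit in simj, the p66 subunit of the NuRD chromatin complex, ran the other way, at 3.45, 2.70 and 2.04, with replicate 2 the highest. The Notch receptor gene N had 1.68, 2.75 and 3.46, and fz, the Wnt and planar polarity receptor Frizzled, 1.51, 2.73 and 3.76. Both were lowest in replicate 2 and highest in replicate 4.

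The other members among the 20 strongest were in CG6959, heca (headcase), hth (homothorax, a homeodomain cofactor of Hox proteins), CG43759, Bx (Beadex, a LIM-only protein), Drak (a death-associated protein kinase relative), rdx (roadkill, a ubiquitin ligase adaptor in Hedgehog signalling), 3 further places in sbb, and lncRNA:CR32773 with 2 summits. At hth the values were 1.66, 2.06 and 1.77, within 1.25-fold of each other. One of the summits in lncRNA:CR32773 varied most, at 0.633, 2.15 and 3.55, a 5.61-fold range. All 20 were matched among the strongest peaks of every replicate.

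**Figure D2:**
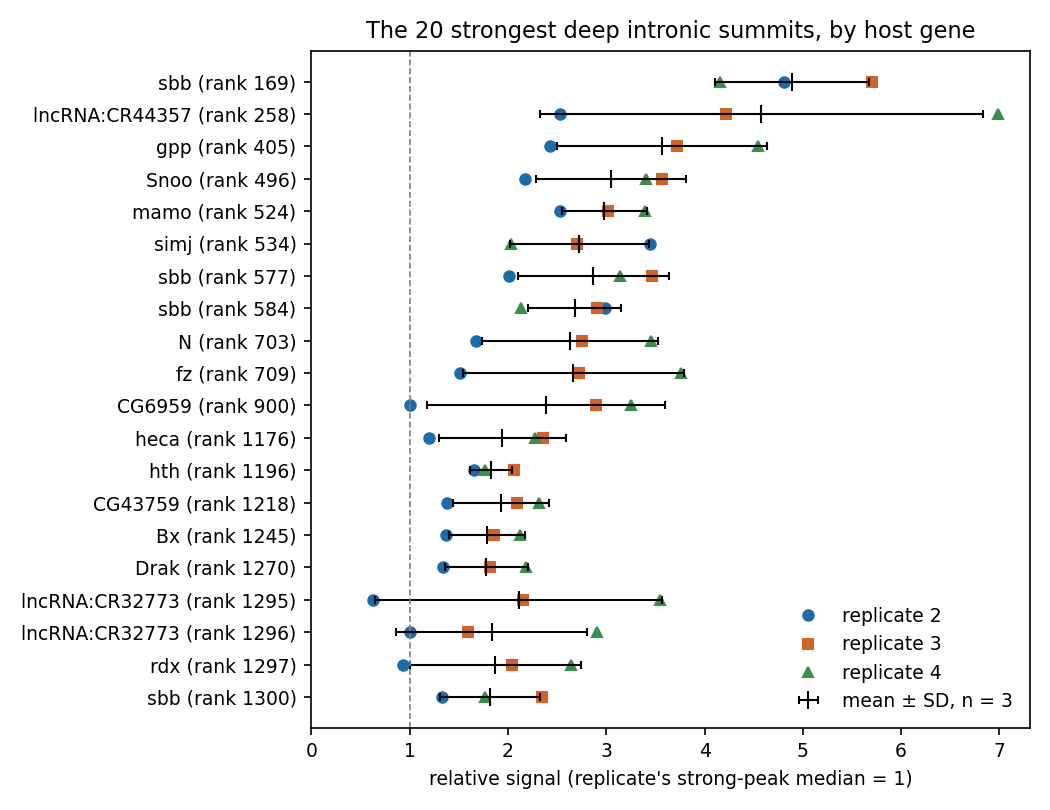
Relative signal (x axis, 1 is the median of a replicate's 5806 strongest peaks) of the 20 strongest deep intronic summits, by host gene and rank in the reproducible list; symbols are replicates and bars are mean ± SD (n = 3). The sbb summit of rank 169 has the highest mean, 4.89, and the widest SD is at lncRNA:CR44357, from 2.53 to 6.99.

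Among the strongest peaks, fewer members were matched across libraries than near intronic or promoter summits, and in the full lists the order was the other way. A match needed overlap with one of the 5806 strongest peaks, and 104 members (46.6%, 40.0 to 53.4%) were matched in all 3 replicates against 55.3 percent of all reproducible peaks. Another 92 were matched in 2 and 27 in 1. The deep share was below that of near introns (57.7%, adjusted p = 0.0079) and promoters (57.6%, adjusted p = 0.00639), and its difference from mid introns (53.2%, adjusted p = 0.128) and from intergenic DNA (47.4%, adjusted p = 0.877) did not pass the threshold, by Fisher's exact test, 2-sided, adjusted over 4 comparisons. Replicates 2, 3 and 4 held 59.6, 91.0 and 83.9% of members among their strongest peaks. For mid intronic summits the same shares were 70.2, 90.5 and 83.2%. Without a replicate, a match was needed in both other replicates only. The difference from mid introns (deep minus mid) was then −0.958 points without replicate 2 (adjusted p = 0.783) and −10.01 points without replicate 4 (adjusted p = 0.0113), by the same exact test.

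The median relative signal of members was 0.690, 1.06 and 0.993 in the 3 libraries in the same order, and 0.811, 1.07 and 1.04 in mid introns. Within a strength class the match rates were closer in percentage points. In the second quintile 88.9% of deep and 89.3% of mid summits were matched in all 3, in the third quintile 56.9 and 58.9%, and in the fourth quintile 30.7 and 33.0%. The strongest quintile had 100 and 97.2%. In the weakest, 1 of 47 deep summits (2.13%) and 13 of 176 mid summits (7.39%) were matched. The full lists of 30000 peaks, which include background, overlapped 211 members (94.6%) in every replicate. That share was 92.6% for mid introns, 90.5% for near introns, 88.6% for intergenic DNA and 84.1% for promoters. The deep share was above those of promoters (adjusted p = 1.701e-05) and intergenic DNA (adjusted p = 0.0183), and its difference from near introns (adjusted p = 0.0797) and mid introns (adjusted p = 0.374) did not pass the threshold, by Fisher's exact test, 2-sided, adjusted over 4 comparisons.

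Most host genes held 1 member. Of 784 protein-coding genes with any deep intronic base, 135 held a member, 17.2 percent, and 8 other hosts were of other types. One member was found in 87 of the 135, 2 in 32 and at least 3 in 16, and those 16 held 72 members. Hosts offered more room, with a median of 20.2 kb of deep intronic bases against 7.52 kb in eligible genes without a member. The 7 coding genes with at least 4 members were kirre, Snoo, sbb, ftz-f1, hth, NetA and Tet.

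The gene kirre, for an immunoglobulin-domain protein of myoblast fusion, had 10 members in 394149 bp, the longest host. They lay 93.8 to 346 kb from its 5' end, with 6 of them between 268 and 285 kb. None was strong, with mean relative signals from 0.670 to 1.47, and 2 of the 10 were matched in all 3 replicates. Replicate 2 was the lowest library at every kirre summit, for example 0.557, 1.89 and 1.95 in replicates 2, 3 and 4 at 306 kb.

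Snoo had 9 members, of which 3 were matched in all replicates. Its summit at 58.6 kb stood apart at a mean of 3.05, and the others had means of 0.557 to 1.59. The 8 members in sbb were packed into 17843 bp, from 12.8 to 30.6 kb, and 7 were matched in all 3. Next to the leading summit at 20.1 kb, those at 18.8 kb (2.01, 3.47 and 3.14) and 23.9 kb (2.99, 2.91 and 2.14) were also above the strong-peak median in each library. The weakest sbb summit had 0.620, 0.826 and 0.545, so strength varied widely within the gene.

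Among the hth summits, 4 of 5 were matched in all 3, and the exception had 0.429, 1.14 and 0.234. The gene ftz-f1, for a nuclear receptor of the ecdysone cascade, shared its 5 members with lncRNA:CR45939, which overlaps it. A pair of these sat close together at 11.5 and 11.7 kb and matched the same peaks of replicates 3 and 4, at 0.731 and 1.11, so they are not separate measurements there. NetA, a Netrin axon guidance ligand, had 4 members between 19.1 and 31.5 kb with means of 0.854 to 0.994. Tet, a DNA and RNA modifying dioxygenase, had 4, of which the summit at 27.2 kb gave 0.734, 1.06 and 2.89, highest in replicate 4.

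**Figure D3:**
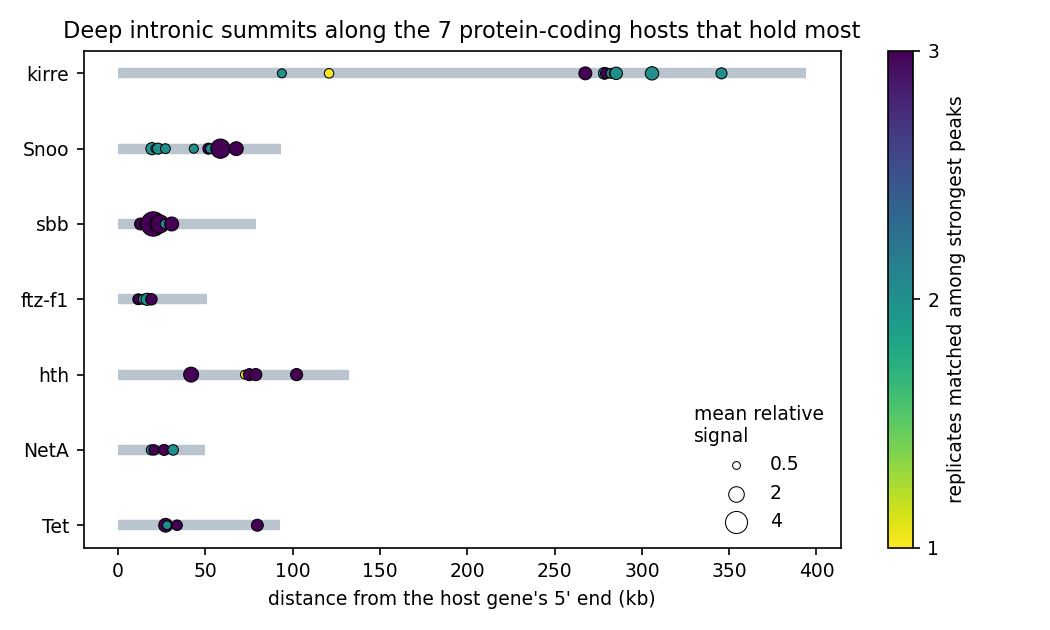
Position of deep intronic summits along the 7 protein-coding host genes with at least 4, as distance from the 5' end in kb (x axis); grey bars are gene lengths, point area is mean relative signal, colour the number of replicates matched. The 8 summits of sbb lie within 12.8 to 30.6 kb, whereas the 10 of kirre spread from 93.8 to 346 kb.

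Hosts were counted in lists of genes by function, over genes with any deep intronic base, beside the 17.2 percent of all such genes. The counts are descriptions without a test. Genes of the ecdysone response and nuclear receptors held members in 5 of 11 (45.5%): Hr4, ftz-f1, Eip93F, EcR and tai. Wnt, Notch, BMP and Hedgehog genes did so in 6 of 15, among them N, fz, nkd and kuz. Homeodomain factors had 6 of 20, led by hth, ct, NK7.1 and Antp, of which hth and Antp act in segment identity.

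Axon guidance and cell recognition genes held members in 11 of 39 (28.2%), led by kirre, the adhesion protein gene Nrg, DIP-gamma and NetA. Zinc finger, BTB and other sequence-specific factors had 8 of 29 (27.6%), including ush, bi, luna and psq. EGFR, FGF and Ras signalling had 3 of 11 (27.3%), jeb, Raf and vn. Hemocyte and fat body genes had 1 of 4, ush, and trachea, epidermis and polarity genes 2 of 10, scrib and baz.

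Lower than the share of all eligible genes were ion channels and synapse, with 3 of 26 (11.5%), Ca-alpha1T, Nlg3 and nAChRalpha6, and RNA-binding proteins, with 1 of 15 (6.67%), the translational repressor pum. Muscle structure genes had deep intronic bases in 9 and a member in 0. No glial gene of the list had deep intronic bases. The genes tai, ush and fz2 each stand in more than 1 list, and longer genes offer more bases, which these counts do not adjust for.

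No motif of the list passed the test in either direction. Each was sought on both strands of the windows of 100 bp to either side of the summits and of windows shifted by 1000 bp to the right. The 24 searched were the nuclear factor I palindrome (TTGGC, 5 bases of any kind and its reverse complement), the arm alone and the arm followed by A, TATCGATA of DREF and BEAF-32, core promoter Motif 1, TAATTA of homeodomain proteins, the MEF2 site, CAGGTAG of Zelda, GAGAGAG of GAGA factor, and the E boxes CAGCTG of bHLH proteins, CACGTG, and CACCTG of the Snail type. Further motifs were ACCGGTT of Grainyhead, TGANTCA of AP-1, AGATAAG of GATA factors, AACCACA of Runt domain proteins, CCGGAAG of ETS factors, GTGGGAA of Su(H), TTTATGG of Abd-B type homeodomains, ATGCAAAT of POU factors, TGATTGAT of Exd with Hox, AACAAT of Sox factors, TGTTTAC of forkhead factors, and the repeat CACACACA. The arm lies inside both longer forms. By paired exact binomial tests, 2-sided and Benjamini-Hochberg adjusted over the 24, 0 percent were more frequent and 0 percent less frequent, and at unadjusted p under 0.05 there were 1 and 3. Against mid intronic windows Fisher's exact test called 0 percent in either direction, with 1 and 1 at unadjusted p under 0.05.

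The nuclear factor I palindrome was in 0 of 223 windows, which allows a share of up to 1.35%, and in 4 of all 5806 reproducible windows. The arm TTGGC was in 74 members (33.2%) against 106 right-hand flanks (47.5%) and 98 left-hand flanks (44.0%), adjusted p = 0.0535 by the exact binomial test. In all reproducible windows the share was 35.6%. With TTGGCA the counts were 26 members (11.7%), 47 right-hand and 36 left-hand flanks (adjusted p = 0.0891, same exact test). Both sat lower at summits, and neither difference passed the threshold. With flanks shifted by 2000 bp the difference of TTGGC did (adjusted p = 0.00998, exact binomial).

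CAGCTG, an E box of bHLH proteins, was in 7 members (3.14%) and in 23 and 25 flanks (adjusted p = 0.0535, exact binomial). In promoter windows it reached 14.2%. TGANTCA, bound by AP-1 dimers, was in 19 members (8.52%) against 7 and 12 flanks, and the difference had adjusted p = 0.174 by the exact test. Of the sites of fly promoters, TATCGATA, bound by DREF and BEAF-32, was in 0 members, allowing up to 1.64%, and in 8.23% of promoter windows. Motif 1 was in 2 members.

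Base composition differed between windows. Median GC content was 34.8% in members, 40.3% in right-hand flanks and 39.8% in left-hand flanks. It was 35.3% at mid intronic and 36.8% at promoter summits. AT content around members rose from 55.0% at 120 to 140 bp to 67.8% in the first 20 bp right of the summit. The part of composition in the motif and 6-mer counts was not tested.

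Among all words of 6 bases (strands merged), 18 were more frequent in member windows than in right-hand flanks, 0.865 percent, and 10 less frequent, 0.481 percent (paired exact binomial tests, 2-sided, adjusted over all words). Past the threshold against the left-hand flanks too were 11 of the 18 and 1 of the 10. To leave a replicate out, only members matched among the strongest peaks of both other replicates were kept. The list itself was still the one derived from all 3 libraries. This left 173, 113 and 118 windows without replicates 2, 3 and 4. In these subsets the more frequent words numbered 3, 1 and 0, and the less frequent ones 0 in each case. Several of the 18 overlapped with CAGTG. The word CAGTGC was in 59 members (26.5%) against 22 right-hand and 15 left-hand flanks, a 3.19-fold excess over their mean (adjusted p = 0.00211, exact binomial). ACTGAG was in 38 members, 3.62-fold over the flanks, CACTGA in 46, 3.29-fold, ACAGTG in 43, 2.87-fold, and ACTGTG in 40, 2.76-fold.

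Other words held mostly A and T. The word AATAGT was in 43 members, 3.58-fold over the flanks, and AACTAT in 49, 2.58-fold. ACTAAA was 2.19-fold more frequent. ATATCA (2.27-fold) and AGTGTA (2.25-fold), which shares AGTG with the element, did not pass the threshold against the left-hand flanks (adjusted p = 0.0755 and 0.390, exact binomial). Of the words lower at summits, ACGGGG was in 0 members (12 and 8 flanks), which allows a share of up to 1.64%. Others were CTCCTC (2 members against 20 and 15 flanks), GGAGGA (4 against 22 and 19), CCCAGA (4 against 23 and 12), GCAGGA (5 against 23 and 20) and CGGCAG (5 against 24 and 16). GGGAAA was less frequent past the threshold against both flanks, at 17 members against 53 and 44 flanks. Against mid intronic summits 0 percent of the words differed in either direction by Fisher's exact test, with 47 and 32 at unadjusted p under 0.05, so no word can be called particular to the deep class.

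Copies of CAGTG had a place and a direction. This was looked at after the 6-mers had been seen, and it is given without a test. Between 41 and 120 bp from the summit, 76 members (34.1%, 27.9 to 40.7%) held a copy that read away from the summit, to the right on the right side or to the left on the left side. Windows shifted by 1000 bp held one in 9.42 and 15.7%. A copy reading toward the summit was in 55 members (24.7%). At 61 to 80 bp there were 43 outward copies against 11 inward, or 19.3 and 4.93 per 100 members. In the range next to it, 41 to 60 bp, the direction was the other way, with 16 outward against 24 inward.

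Longer forms were more one-sided. They contain words found more frequent in these same member windows, so their counts are descriptions and do not test a direction. CTCAGTG read away in 29 members (95% interval 8.89 to 18.1%) and toward in 0 of 223, which allows a share of up to 1.64%. CAGTGCA read away in 34 and toward in 7. Around each replicate's own deep intronic summits, CTCAGTG read away in 7.89% (152 summits), 9.43% (297) and 10.5% (287), a mean of 9.26 ± 1.29% (SD, n = 3). Toward the summit the shares were 0.658, 0.337 and 0%. The direction was therefore seen in each library's own summits as well, which share much of their sequence with the members.

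Mid intronic summits held CTCAGTG outward in 56 of 820 (6.83%) and inward in 7. Intergenic summits had 61 of 665 (9.17%) outward and 6 inward. Near intronic summits had 32 of 846 (3.78%) outward and 8 inward. At promoters it was 59 of 3110 (1.90%) outward and 20 inward. Summits with CTCAGTG outward outnumbered those with it inward in all 5 of these classes. The shorter CAGTG was outward at 34.1% of deep, 31.5% of mid intronic and 34.7% of intergenic summits. In near introns it was outward at 205 summits and inward at 226, and at promoters outward at 614 and inward at 672. For CAGTG the outward excess was therefore absent from these 2 classes. The difference of the deep share from the others was not tested.

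**Figure D4:**
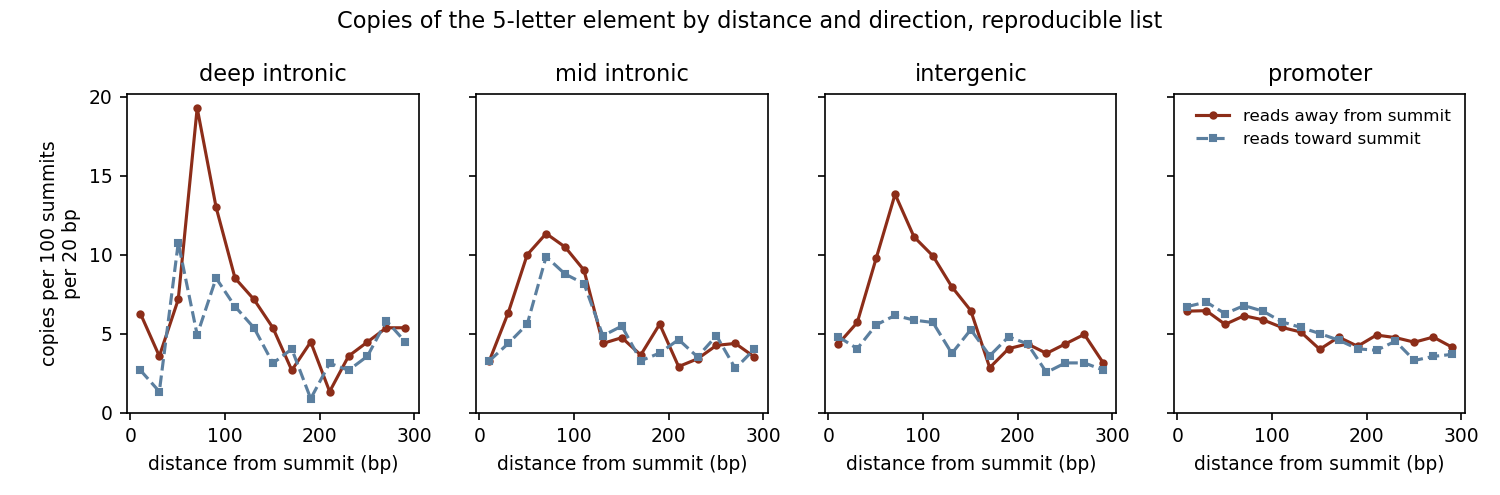
Copies of the 5-letter element CAGTG per 100 summits (y axis) in steps of 20 bp from the summit (x axis) for 4 classes of reproducible summits; the solid line counts copies that read away from the summit, the dashed line copies that read toward it. In deep introns the outward line peaks at 19.3 per 100 at 61 to 80 bp, where the inward line is at 4.93, and at promoters the lines run together.

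The 107 outward copies had further letters in common. T stood at 79.4% of copies 7 places before CAGTG, and at 72.0% both 6 and 5 places before it. C was at 51.4% of copies 2 places before. The next bases after CAGTG were C in 55.1% and A in 62.6%. From these letters the 12-base element (TTT, 4 bases of any kind and CAGTG) was written down. Of the members with an outward CAGTG on 1 side only, it read along the sense strand of the host in 21 and along the antisense strand in 29.

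Pairs of the 12-base element, reading away from each other, were then counted across the genome. The genome held 12601 copies on either strand. The distance between the outer edges of a pair, its span, was far from even: 171 pairs spanned over 140 and up to 160 bp and 169 over 160 and up to 180 bp, against 58 at 121 to 140 bp, 71 at 181 to 200 bp and 27 at 281 to 300 bp. This count uses the reference sequence and no peak. Of the 340 pairs spanning over 140 and up to 180 bp, 99 (29.1%, 24.3 to 34.3%) had a reproducible summit within 100 bp of their centre, and 219 had a summit of the pooled list of 30000. Pairs of other spans had such summits too, reproducible ones at 16 of 71 of 181 to 200 bp, 11 of 44 of 241 to 260 bp and 4 of 27 of 281 to 300 bp.

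Deep introns held 57 of the 340 pairs, 3.31 per Mb, close to the 3.60 per Mb of mid introns. A reproducible summit lay at 17 of the 57 (29.8%, 18.4 to 43.4%) and at 27 of the 87 pairs in mid introns (31.0%, 21.6 to 41.9%). The intervals overlap almost fully, but with 57 and 87 pairs they cannot show that the shares are equal. Counted on the strongest peaks of each replicate, the deep share was 10.5, 28.1 and 29.8% in replicates 2, 3 and 4 (mean 22.8 ± 10.7%, SD, n = 3) and the mid share 12.6, 35.6 and 39.1%. The deep share was below the mid share in each replicate, and replicate 2 gave the lowest share in both classes. The element was derived from copies at the deep members, which can favour the deep share. The shares therefore describe the pairs and do not test them.

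The 17 members with a pair were 7.62% of all, in 16 host genes. Spans ran from 143 to 179 bp with a median of 159 bp, and the summit lay a median of 18 bp from the centre of the pair. In 16 of the 17 it lay between the elements, and in eIF5B the whole pair stood on 1 side of it. The 3 highest in the ranking were CG43759 with relative signals of 1.38, 2.09 and 2.32, Snoo at 67.7 kb with 1.00, 1.87 and 1.89, and CG34347 with 0.884, 1.39 and 1.94. Replicate 2 was the lowest at each.

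The other 14 were in gukh, the homeodomain genes Vsx1 and Lim1, kek6, NetA, the translation factor gene eIF5B, the calcium channel gene Ca-alpha1T, haf, the receptor phosphatase gene Ptp10D with 2, kirre, the phosphodiesterase gene dnc, pum and lncRNA:CR46006. At Vsx1 the values were 0.776, 0.961 and 0.815, and at gukh 0.438, 1.41 and 1.54. Matches in all 3 replicates numbered 6 of the 17. In none of the 136 combinations of 2 of these members did the bases between the elements share a word of 12 bases on either strand. Over 50% of the bases were masked as repeats in 1 of the 17 pairs and in 31 of the 340.

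**Figure D5:**
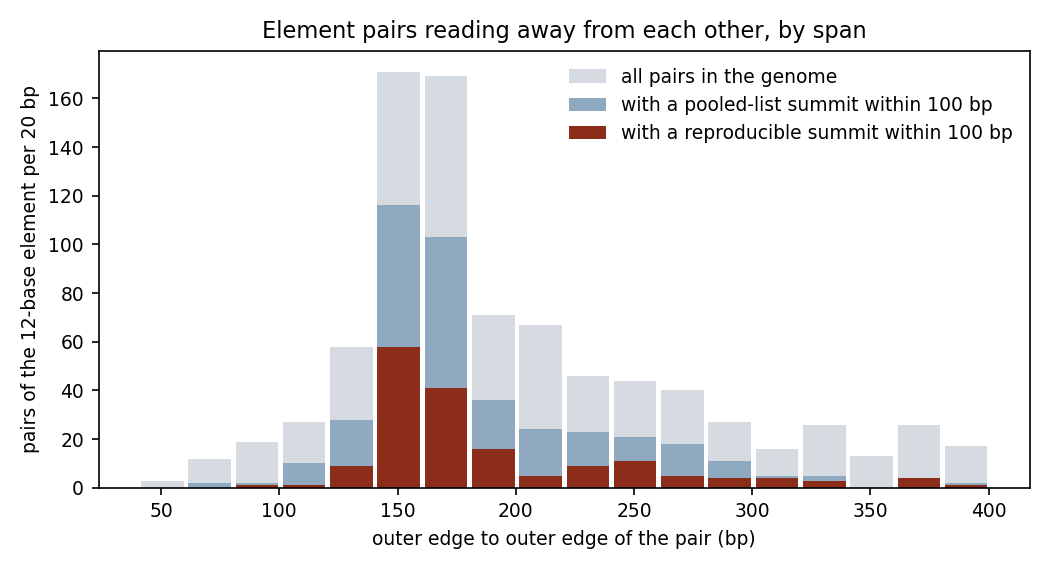
Number of pairs of the 12-base element in the genome (y axis) by span from outer edge to outer edge in steps of 20 bp (x axis); darker bars are those with a pooled-list or reproducible summit within 100 bp of the centre. The 171 and 169 pairs of 140 to 160 and 160 to 180 bp stand above every other span between 41 and 400 bp, and 58 and 41 of them have a reproducible summit.

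Strength is given side by side for members with and without the outward element. The 76 members with CAGTG reading away had a median authors' signal of 265 and the other 147 a median of 266, on the caller's unstated scale. All 3 replicates matched 33 of the 76 (43.4%) and 71 of the 147 (48.3%), a difference that did not pass the threshold (Fisher's exact test, 2-sided, unadjusted p = 0.571). Median relative signals with and without it were 0.649 and 0.709 in replicate 2, 1.00 and 1.07 in replicate 3, and 1.12 and 0.963 in replicate 4, so the order differed between libraries.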

How the data were processed

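ChIP-seq peaks came from 3 biological replicates of 1 group of NfI-GFP embryos. The authors deposited narrowPeak lists on assembly dm6, per the file headers: 30000 peaks per replicate with background, a pooled list, and an optimal list of 5806 peaks thresholded by the irreproducible discovery rate, called reproducible here. Chromatin was sonicated, per the labels. Which aligner and peak caller were run is not given in the sources used here. Deposited signal has an unstated scale, and it served to rank the peaks of a list. The deposited −log10 q-value was at the list maximum for all 223 members and separated none. No read counts are given, so depth is unknown and intervals cover counting error only.

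Summits were classed with Ensembl release 115 (BDGP 6.54), and sequences were read from the RefSeq genome of the same assembly. The annotation also lists 5809 transposable elements as genes. They were not counted as genes here, and counting them leaves 165 members. Classes were promoter (within 500 bp of a start site), exon, intronic by distance, and intergenic. Overlap needed 1 bp. Tests were exact (Python 3.11.15, SciPy 1.17.1) and were tested on simulated data. Named genes were the hosts of the 20 strongest members, those with most members, up to 4 per gene list and the 3 summits on either side of the limit. Members of the element pairs were chosen after their values were seen. The members, gene lists and motifs were chosen with earlier results of these data known. Of 528 listed symbols 3 had no match. One gene list and some summit sequences are not reported here.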

Additional observations from a re-analysis of the deposited data

How the results depend on the processing

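The density ratio stayed below 1 and past the threshold in all 9 alternatives run, from 0.231 with a limit of 20000 bp to 0.514 with 5000 bp. Wherever the limit was moved, the mid class ended at the new limit too. Alternatives without a replicate kept the reproducible peaks matched among the strongest peaks of both other replicates, and peaks were not called again. For matches, they counted a match in both other replicates. Without each replicate the density ratio was 0.321 to 0.378. The difference in matches to mid introns (−6.53 points) became +2.06 points (p = 0.374, Fisher's exact test) with full replicate lists, passed the threshold at −7.58 points with a limit of 5000 bp (p = 0.0207), and was −10.01 to −0.958 points without each replicate. The deficit in the top 20% by signal (−8.24 points) was −2.11 for the top 10%, −5.18 for the top 50% and −3.26 with a limit of 20000 bp, none past the threshold, and −13.1 to −9.95 without each replicate. Less frequent motifs numbered 1 with a shift of 2000 bp (TTGGC, adjusted p = 0.00998, exact binomial), 1 with a window reaching 50 bp to either side (TTGGC, adjusted p = 0.0495), and 0 to 1 without each replicate (CAGCTG without replicate 4). More frequent 6-mers numbered 50 with a shift of 2000 bp, 0 with a window reaching 50 bp to either side, 8 with transposable elements as genes and 0 to 3 without each replicate; less frequent ones 20, 2, 4, 0 to 0, and 4 against left-hand windows. The windows left without a replicate were 173, 113 and 118. Listed hosts numbered 96 in place of 50 with a limit of 5000 bp, where 1760 genes were eligible. Alternatives with transposable elements or unmasked bases were chosen after seeing the data. No paired analysis was possible because all replicates belong to 1 group. The cause of these changes was not tested. Unknown depth limits what a missing match in replicate 2 shows.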
